A study of Mus musculus with 6 samples.

Results

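The genes described here are 10 clock genes of mouse liver: the period genes Per1, Per2 and Per3, the cryptochrome genes Cry1 and Cry2, the repressor gene Ciart, the PAR bZIP factor genes Dbp, Tef and Hlf, and the deubiquitinase gene Usp2. They were found by their annotated symbols among the 19505 named genes of the array, and all 10 were present, with 1 row each. The group was chosen by measured values as well as by symbol: its values in the same 6 livers, by genotype and by liver number, were known when it was proposed. They are therefore given as a description and support no claim of their own. The study compared livers of HMGB2-KO mice with livers of WT mice to find genes related to Hmgb2, which encodes a DNA-bending chromatin protein. Each genotype had 3 livers, all from male mice of the C57BL/6 background aged 8 weeks, and each liver was read on 1 Clariom S mouse array. The labels name no treatment, no time of day and no method or extent of the gene's removal. The titles number the livers 1, 2 and 3 within each genotype, and the animals behind those numbers were 39, 41 and 32 in HMGB2-KO and 38, 40 and 31 in WT. No label says what a shared liver number stands for, or that same-numbered livers have a source in common.

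The circadian clock of a hepatocyte is a feedback loop of transcription that runs once a day. BMAL1 (gene Arntl) with CLOCK or NPAS2 binds E-boxes and switches on the period and cryptochrome genes, whose proteins return to the nucleus and inhibit that complex. The same complex drives the PAR bZIP factors, which bind D-boxes, and the REV-ERB repressors (Nr1d1, Nr1d2), which silence Arntl. In liver, these transcripts therefore peak and fall at set times of day, and feeding and glucocorticoids also set their timing.

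Values are log2 differences from a baseline of each row that the sources used here do not describe, with the median of every array set to 0. Differences between livers can be read from them, but levels of different genes cannot be compared. Hmgb2 was at -0.66, -0.33 and -0.43 in HMGB2-KO livers 1, 2 and 3, against 0.47, 0.37 and 0.42 in WT livers 1, 2 and 3. Every liver thus lay on its label's side. Before centring, the array of WT liver 2 had a median of 0.26 over all rows, against -0.05 to 0.01 for the other 5, and it held 132 rows more than 2 log2 below every other array, against 4 to 33. Some differences and counts by liver number that rest on that array are also given without it, and the others only with it. The order of the liver numbers needs it. For all 10 genes, the direction of livers numbered 3 against the rest was the same without it. In whole liver, fewer cells of a type and less RNA per cell cannot be told apart. The median values of 7 lists of cell type markers, 41 of 46 genes measured, lay from -0.15 to 0.73 in HMGB2-KO livers and from -0.21 to 0.69 in WT livers. The Kupffer cell and macrophage median was 0.41 to 0.60 in HMGB2-KO livers and 0.26 to 0.40 in WT livers, and the cholangiocyte median was -0.15 to -0.13 against -0.06 to 0.15. Their part in the clock values was not tested. The albumin-type hepatocyte genes gave no check of the tissue's identity, since no level can be read.

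Most of the 10 genes varied more with the liver number than with the genotype. Dbp, Ciart, Per1, Per3 and Cry2 were lowest in the livers numbered 3 of both genotypes, and Cry1 was highest there. Livers numbered 2 also stood above those numbered 1 for 7 genes, most for Ciart, Usp2, Dbp and Per3, by 2.29, 2.15, 1.24 and 0.89 log2, but not for Cry1, Cry2 and Tef. Without the array of WT liver 2, HMGB2-KO liver 2 exceeded the livers numbered 1 by 2.32, 2.54, 1.52 and 0.91 for those 4 genes. For 8 of the 10 genes the means of the 3 liver numbers spanned more than the widest gap between same-numbered HMGB2-KO and WT livers, Cry2 and Tef being the exceptions.

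**Figure D1:**
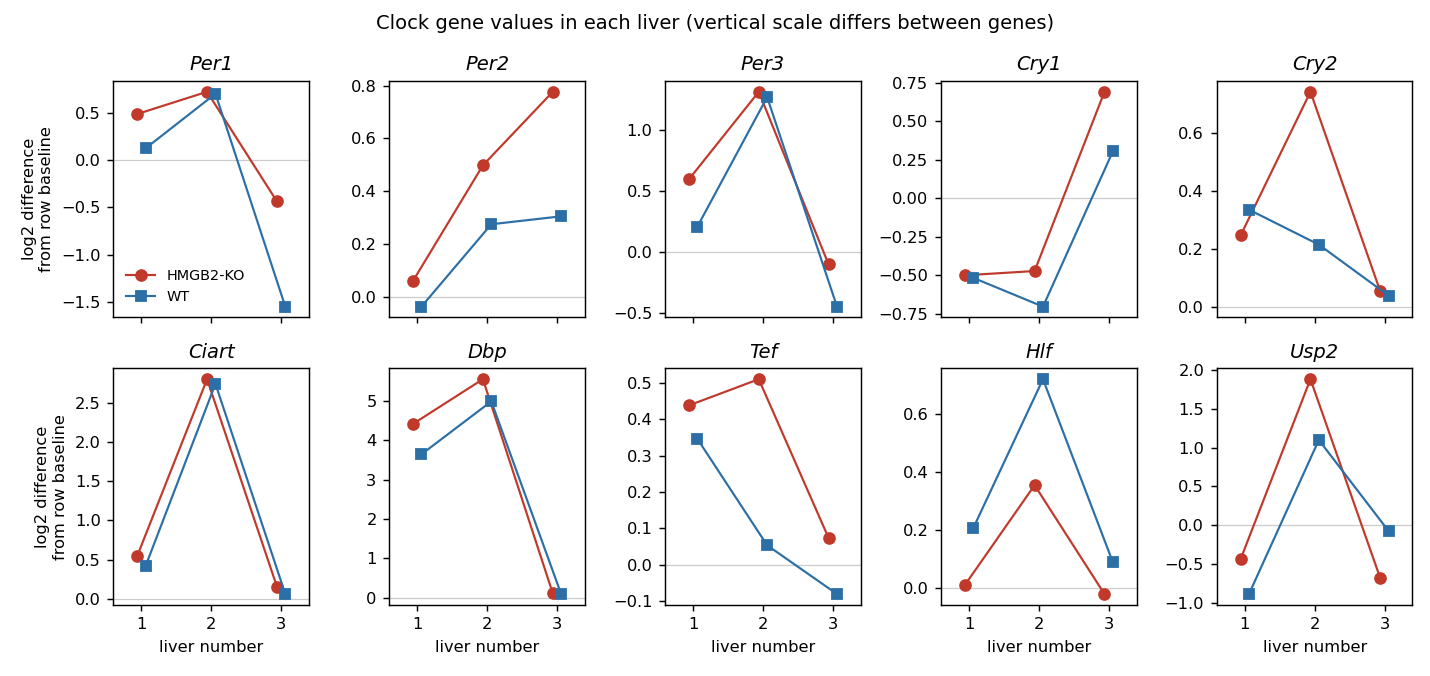
Value of each of the 10 clock genes in the 6 livers, as the log2 difference from the row baseline against liver number, with red circles for HMGB2-KO and blue squares for WT. Each point is 1 liver, so no error bars are drawn. The vertical scale differs between genes, so the closeness of lines cannot be compared between panels by eye. Ciart spans 2.74 log2 over the livers, with same-numbered livers at most 0.13 apart. Dbp spans 5.46 log2, with same-numbered livers up to 0.77 apart.

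The period genes encode the inhibitors whose build-up closes the loop. Per1, which also responds directly to glucocorticoids, was at 0.49, 0.72 and -0.44 in HMGB2-KO livers 1, 2 and 3, against 0.12, 0.70 and -1.55 in WT livers 1, 2 and 3. Both livers numbered 3 were below the other 4, with a mean difference of -1.50 log2, which is 2.83-fold lower. Within genotypes the difference of liver 3 from livers 1 and 2 was -1.04 in HMGB2-KO and -1.96 in WT, so WT liver 3 was the lowest of all. Without that liver the mean difference was -0.94, and without HMGB2-KO liver 3 it was -2.06.

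Per3, a period gene that mice can lose with little effect on the rhythm, was at 0.59, 1.31 and -0.10 in HMGB2-KO livers 1, 2 and 3, against 0.21, 1.26 and -0.45 in WT livers 1, 2 and 3. Its order was liver 2, liver 1, liver 3 from high to low in both genotypes. The livers numbered 3 averaged -0.27 and those numbered 1 or 2 averaged 0.84, a difference of -1.12 log2. It was of like size within HMGB2-KO (-1.05) and within WT (-1.18).

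Per2, the period gene most needed for the rhythm, ran the other way. It was at 0.06, 0.50 and 0.78 in HMGB2-KO livers 1, 2 and 3, against -0.04, 0.27 and 0.30 in WT livers 1, 2 and 3. In both genotypes liver 1 was lowest and liver 3 highest, but WT livers 2 and 3 were only 0.03 apart and HMGB2-KO liver 2 lay above WT liver 3. The mean difference of livers numbered 3 from the rest was 0.34, or 0.11 without HMGB2-KO liver 3 and 0.58 without WT liver 3.

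The cryptochromes are the stronger inhibitors of the BMAL1 complex. Cry1, whose transcript usually peaks later than those of the period genes, was at -0.50, -0.47 and 0.69 in HMGB2-KO livers 1, 2 and 3, against -0.51, -0.70 and 0.30 in WT livers 1, 2 and 3. Both livers numbered 3 were above the other 4, with a mean difference of 1.04 log2, or 2.06-fold. Livers numbered 1 and 2 hardly differed in it (-0.08). Cry2, a weaker and flatter relative, was at 0.25, 0.74 and 0.05 in HMGB2-KO livers 1, 2 and 3, against 0.34, 0.21 and 0.04 in WT livers 1, 2 and 3. Its livers numbered 3 were again lowest, but the whole range was 0.71 log2 and HMGB2-KO liver 2 set most of it. The difference of livers numbered 3 from the rest was -0.34, or -0.22 without HMGB2-KO liver 2.

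Ciart encodes CHRONO, a further repressor of the BMAL1 complex. It was at 0.55, 2.80 and 0.16 in HMGB2-KO livers 1, 2 and 3, against 0.42, 2.75 and 0.06 in WT livers 1, 2 and 3. Liver 2 stood alone in each genotype, by 2.26 log2 over liver 1 in HMGB2-KO and 2.33 in WT. Livers 1 and 3 were 0.39 apart in HMGB2-KO and 0.36 in WT. At every liver number the genotypes were within 0.13 log2 of each other, the closest match of the 10 genes.

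Dbp, the PAR bZIP gene with the deepest daily swing in liver, had the widest range of the 10 and ranked 28 by range among all 19505 genes. Its values were 4.42, 5.55 and 0.11 in HMGB2-KO livers 1, 2 and 3, against 3.64, 4.99 and 0.09 in WT livers 1, 2 and 3. Both livers numbered 3 were near their baseline and within 0.02 of each other, and the other 4 lay at least 3.53 log2 above them. The mean difference of livers numbered 3 from the rest was -4.55 log2, which is 23.4-fold lower, with -4.88 in HMGB2-KO and -4.22 in WT. Livers numbered 2 were above those numbered 1 by 1.24 log2, or by 0.24 with quantile normalization.

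Tef and Hlf encode the other PAR bZIP factors, which share the D-box with DBP. Tef was at 0.44, 0.51 and 0.07 in HMGB2-KO livers 1, 2 and 3, against 0.35, 0.05 and -0.08 in WT livers 1, 2 and 3. WT liver 2 lay just below HMGB2-KO liver 3, and without the array of WT liver 2 both livers numbered 3 were lowest. Hlf was at 0.01, 0.36 and -0.02 in HMGB2-KO livers 1, 2 and 3, against 0.21, 0.72 and 0.09 in WT livers 1, 2 and 3. It peaked in liver 2 of each genotype, over a range of 0.74 log2. The difference of livers numbered 3 from the rest was -0.29, or -0.16 without WT liver 2.

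Usp2 encodes a ubiquitin-specific protease that acts on clock proteins and is itself under clock control. It was at -0.43, 1.88 and -0.68 in HMGB2-KO livers 1, 2 and 3, against -0.88, 1.10 and -0.07 in WT livers 1, 2 and 3. Liver 2 was highest in both genotypes. Which of the other 2 was lowest differed, being liver 3 in HMGB2-KO and liver 1 in WT, so the difference of liver 3 from the rest was -1.40 in HMGB2-KO and -0.18 in WT. Pooled, it was -0.79, or -0.30 without HMGB2-KO liver 2 and -1.22 without WT liver 1.

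Counted over the group, both livers numbered 3 were below the other 4 for 5 of 10 genes (Per1, Per3, Cry2, Ciart and Dbp), as for 9.32% of all genes. They were above the other 4 for 1 gene (Cry1), as for 10.4% of all genes. Without the array of WT liver 2 the count below was 6, with Tef added. Both livers numbered 2 were above both numbered 1 for 7 of 10 genes, against 15.9% of all genes, and below for 0, against 18.1%. Without WT liver 2, the HMGB2-KO liver numbered 2 was above both livers numbered 1 for 10 of 10 genes, against 33.2% of all genes. The 3 liver numbers fell in the same order in both genotypes for 6 genes (Per1, Per2, Per3, Ciart, Dbp and Hlf), against 20.4% of all genes. Ranges over 2 log2 were seen for 4 genes (Per1, Ciart, Dbp and Usp2), against 2.58% of all genes. The median difference of livers numbered 3 from the rest was -0.57 log2 over the 10 genes and -0.00 over all genes, and for the 10 it was -0.29 without HMGB2-KO liver 2. As the liver numbers were in view when the 10 genes were picked, nothing is read from these counts.

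Promoter sequence was set beside these profiles, since E-boxes and D-boxes are the elements through which the clock factors act. RefSeq entries on build GRCm38.p6 were found for 9 of the 10 genes, all but Per2, giving 11 annotated starts. In the 250 bases before each start, both strands were searched for the E-box CACGTG, its variant CACGTT, and the D-box forms TTATGTAA and TTACGTAA. The E-box and TTACGTAA read the same on both strands, and no match overlapped another. Ciart held 3 E-boxes, which 20 of 32851 promoters do (0.0609%). Per3 held 2 D-boxes of the form TTATGTAA, as 6 promoters do (0.0183%). One E-box each stood before Cry1, before a start of Per1 that lies inside the gene's annotated span, and before both starts of Tef, where 6.02% of promoters hold 1 or more. Cry1 and Cry2 each held a CACGTT match on the opposite strand, where 3.85% of promoters hold 1 or more on either strand.

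**Figure D2:**
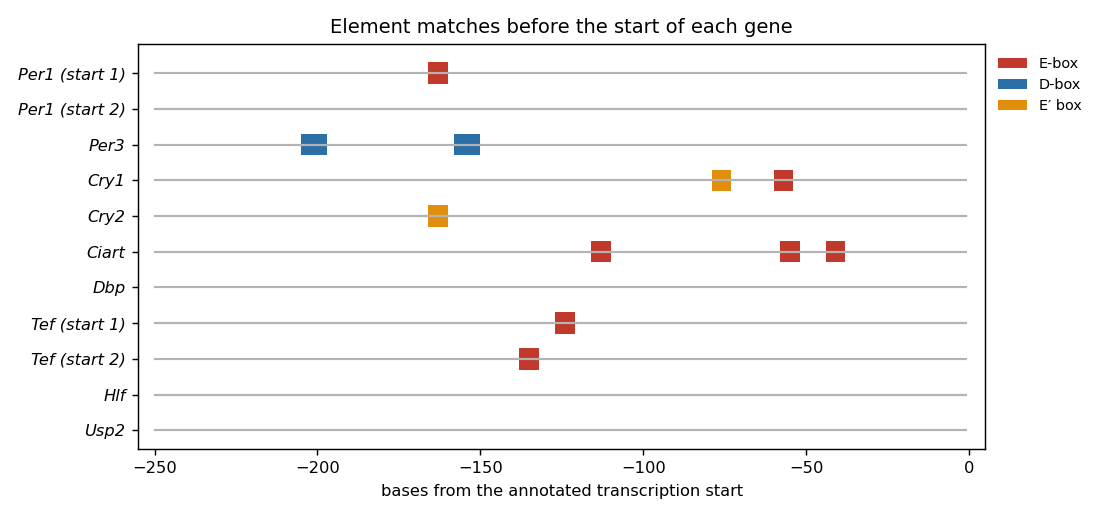
Matches to the E-box, its CACGTT variant (E′ box) and the D-box in the 250 bases before each annotated start, drawn to scale against distance from the start, 1 line per start. Ciart carries 3 red E-box marks and Per3 carries 2 blue D-box marks, while the lines of Dbp, Hlf and Usp2 are empty.

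The stretches below show the E-boxes of Ciart, Cry1 and Tef and the D-boxes of Per3. Each is given 5′ to 3′ on the gene's strand, as far as it lies outside the gene's annotated span, with the matches in capitals:
Ciart, chr3:95882258-95882478, minus strand: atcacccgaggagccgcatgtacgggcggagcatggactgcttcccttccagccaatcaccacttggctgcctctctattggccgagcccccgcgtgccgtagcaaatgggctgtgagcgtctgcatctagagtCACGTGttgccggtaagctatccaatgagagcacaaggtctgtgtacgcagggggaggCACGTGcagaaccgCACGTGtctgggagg
Cry1, chr10:85185055-85185304, minus strand: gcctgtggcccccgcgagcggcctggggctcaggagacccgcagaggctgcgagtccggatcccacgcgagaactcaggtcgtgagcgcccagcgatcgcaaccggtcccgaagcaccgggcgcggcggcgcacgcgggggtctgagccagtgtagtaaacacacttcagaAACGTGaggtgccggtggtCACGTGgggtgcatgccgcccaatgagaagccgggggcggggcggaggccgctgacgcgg
Tef, chr15:81802423-81802672, plus strand: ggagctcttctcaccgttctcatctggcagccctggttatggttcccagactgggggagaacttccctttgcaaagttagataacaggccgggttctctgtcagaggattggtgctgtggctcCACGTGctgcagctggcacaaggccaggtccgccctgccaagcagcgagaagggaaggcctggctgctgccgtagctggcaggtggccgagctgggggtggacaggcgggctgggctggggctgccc
Per3, chr4:151044708-151044915, minus strand: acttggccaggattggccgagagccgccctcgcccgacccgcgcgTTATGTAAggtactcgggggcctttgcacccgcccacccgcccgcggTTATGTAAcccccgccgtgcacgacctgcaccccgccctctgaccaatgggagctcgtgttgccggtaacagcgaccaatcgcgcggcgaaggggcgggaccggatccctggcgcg
In Ciart the E-boxes began 116, 58 and 44 bases before the start. In Per3 the D-boxes began 205 and 158 bases before it. In Cry1 the E-box began 60 bases and the opposite-strand CACGTT match 79 bases before the start. Genes with these matches did not share one profile: Ciart was high in livers numbered 2 and Cry1 in livers numbered 3. Dbp, Usp2 and Hlf, highest in liver 2 of each genotype, had no match to these letters in this window. Dbp was high in livers numbered 1 as well, and low only in those numbered 3.

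HMGB2-KO and WT livers overlapped for each of the 10 genes, where the 3 HMGB2-KO livers all lay above the 3 WT livers for 4.32% of all genes and all below for 5.35%. Across all genes limma's moderated test called 0 of 19505 (0.0%), with 717 genes at an unadjusted p under 0.05, and the same fit without moderation also called 0, with 837. None of the 10 clock genes passed, the smallest adjusted p among them being 0.994. In the same limma fit Hmgb2 itself did not pass, with a log2 fold change of -0.89 and an adjusted p of 0.645. The lack of calls therefore does not show that a gene was unchanged. Among the 10 clock genes the log2 fold change, HMGB2-KO minus WT, was positive for 9 and negative for Hlf. Over all genes it was positive for 9664 of 19505. The median fold change of the 10 was 0.22, against -0.00 over all genes. With the values as deposited, without centring, Ciart was also negative, at -0.024. Group means stood at 3.36 ± 2.87 in HMGB2-KO and 2.91 ± 2.53 in WT for Dbp, and at 0.26 ± 0.61 and -0.24 ± 1.17 for Per1 (SD, n = 3 each). The fold changes were 0.45 with a standard error (SE) of 1.61 for Dbp and 0.50 (SE 0.56) for Per1. For the other 8 they lay between -0.22 (SE 0.20) for Hlf and 0.26 (SE 0.20) for Per2. Leaving out 1 liver turned the sign of 7 of the 10. Dbp then ranged from -0.96 without WT liver 3 to 2.08 without HMGB2-KO liver 3. Each such fit leaves the number of the omitted liver in 1 genotype only, so its shift mixes liver number with genotype. Hlf, Per2 and Tef kept their sign.

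The genotypes were also compared between livers of the same number. At liver numbers 1, 2 and 3, HMGB2-KO minus WT was 0.77, 0.56 and 0.02 for Dbp and 0.13, 0.06 and 0.09 for Ciart. It was 0.36, 0.02 and 1.11 for Per1, the widest gap of the 10 genes, and 0.10, 0.22 and 0.47 for Per2. Usp2 had no single direction, with 0.45, 0.78 and -0.61. HMGB2-KO lay above WT at all 3 numbers for 7 genes (Per1, Per2, Per3, Cry1, Ciart, Dbp and Tef), against 12.7% of all genes. It lay below at all 3 for Hlf, against 13.7%. With the values as deposited, without centring, HMGB2-KO was above at all 3 numbers for only Dbp and Tef (background 3.36%), and with quantile normalization for 5 genes (14.7%). The centring moves the gap at liver number 2 most, where the array of WT liver 2 stands apart. Before centring, 1414 olfactory and vomeronasal receptor rows had a median of 0.54 on that array, against -0.11 to 0.01 on the other 5. After centring, the hepatocyte marker median was -0.21 in WT liver 2, against 0.02 to 0.05 in the other 5. Which setting treats that array better was not tested. Over liver numbers 1 and 3 alone, 7 genes had HMGB2-KO above WT, against 24.0% of all genes. This count was made after the values were seen.

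**Figure D3:**
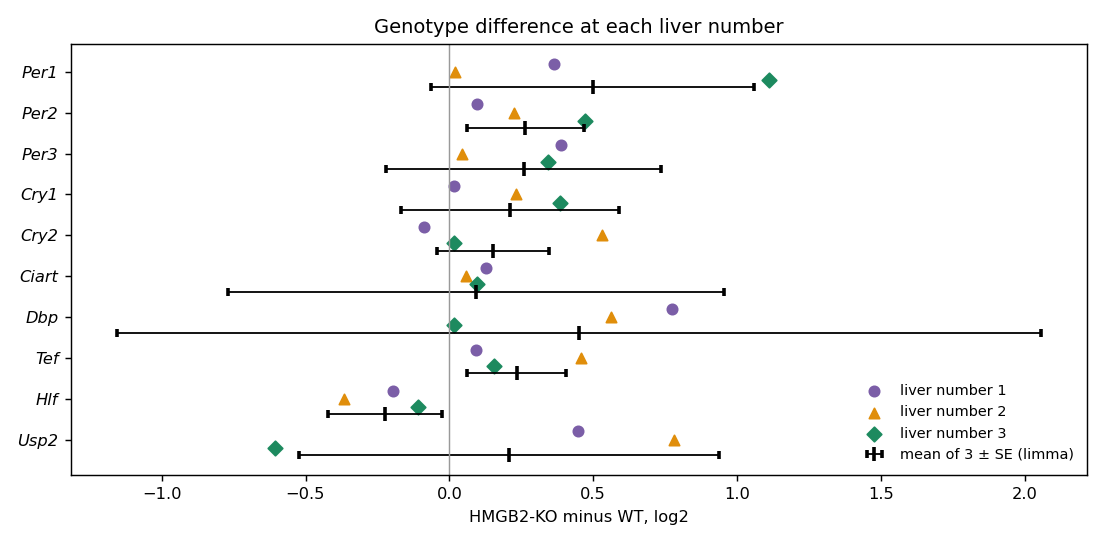
HMGB2-KO minus WT in log2 for each clock gene at liver number 1 (circle), 2 (triangle) and 3 (diamond), with a bar for the mean of the 3 ± its standard error from limma. For 7 genes all 3 points lie right of 0 after centring, and for Usp2 they run from -0.61 to 0.78.

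Other parts of the clock varied by liver number too. Of 11 listed activators and regulators 10 were measured, and 0 passed the genotype test in either direction. Both livers numbered 3 were above the other 4 for 4 of them (10.4% of all genes) and below for 3 (9.32%). Arntl, which encodes BMAL1, was at -1.03, -1.98 and 0.72 in HMGB2-KO livers 1, 2 and 3, against -0.99, -1.71 and 0.62 in WT livers 1, 2 and 3. It was thus highest where Dbp was lowest and lowest where Dbp was highest, in both genotypes. Npas2 was higher by 1.82 log2 in livers numbered 3, and Clock by 0.60. The REV-ERB gene Nr1d1 differed by -4.56 log2 in livers numbered 3 from the rest and did not separate the livers numbered 2 from those numbered 1 (-0.10). Its relative Nr1d2 differed by -2.40.

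**Figure D4:**
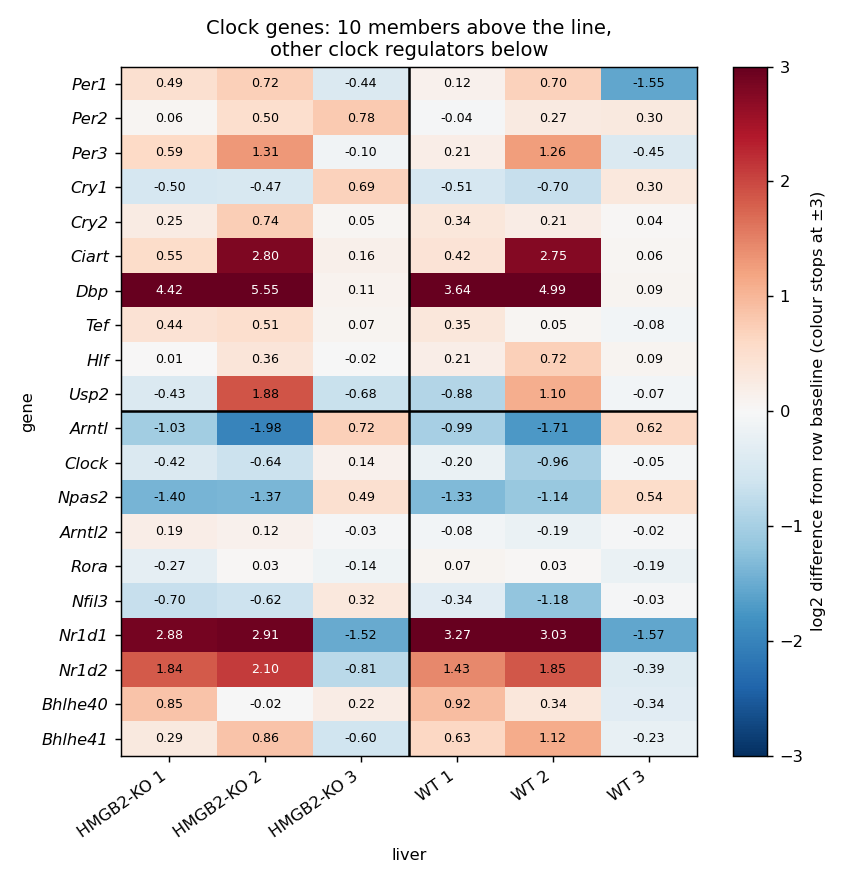
Values of the 10 clock genes (above the line) and 10 other clock regulators (below it) in the 3 HMGB2-KO livers and the 3 WT livers, as log2 differences from each row's baseline, printed in each cell. Colours stop at 3 in either direction. Arntl and Npas2 are above 0 in the livers numbered 3 of both genotypes and below 0 in the rest, while Nr1d1 and Nr1d2 show the reverse.

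The kinases and ubiquitin ligases that set how long period and cryptochrome proteins last varied less. Of 9 listed, Timeless included though it is neither, 8 were measured and 0 passed the genotype test. Livers numbered 3 were above the other 4 for 3 of them (10.4% of all genes) and below for 0 (9.32%). The largest differences of livers numbered 3 from the rest were 0.37 for Fbxw11, a ligase subunit that recognises phosphorylated PER, and 0.27 for the kinase gene Gsk3b (0.18 with the values as deposited). Without WT liver 3 the value for Fbxw11 was 0.19.

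Liver genes known as targets of the PAR bZIP factors did not move as a block. Of 10 listed 9 were measured and 0 passed the genotype test. Livers numbered 3 were below the other 4 for 3 of them (9.32% of all genes) and above for 0 (10.4%). Cyp2b10, a drug-metabolising cytochrome P450, was lower there, by a difference of -1.13 log2 (-0.74 without HMGB2-KO liver 2). Cyp7a1, the rate-limiting enzyme of bile acid synthesis, was higher by 1.28, or 0.81 without WT liver 3, with the livers overlapping. The next 4 genes were looked up after their values were seen. Ppara, the fatty-acid-sensing nuclear receptor, had a difference of -1.13. The close copies Cyp2a4 and Cyp2a5, whose signals may be shared, had differences of -0.62 and -0.58, the second being -0.35 without HMGB2-KO liver 2. Alas1, the rate-limiting enzyme of haem synthesis, was at 0.78, 1.58 and -0.43 in HMGB2-KO livers 1, 2 and 3, against -0.59, 0.45 and 0.83 in WT livers 1, 2 and 3. Liver 3 was thus the lowest HMGB2-KO liver and the highest WT liver for Alas1.

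Among 12 other clock-controlled liver genes, all measured, livers numbered 3 were below the other 4 for 5 (9.32% of all genes) and above for 3 (10.4%), and 0 passed the genotype test. The regulator of G-protein signalling Rgs16 had a difference of -5.10 log2 there and the uridine phosphorylase Upp2 one of -2.26. Of 8 glucocorticoid-induced genes, 0 passed the genotype test, and livers numbered 3 were below the other 4 for 2 and above for 1. They differed from the rest by -2.19 for Zbtb16 and -1.93 for Fkbp5. Lcn2, named after its values were seen, differed by 1.88 (0.06 with quantile normalization). Among the fasting and feeding genes, 6 of 8 measured, 0 passed, and livers numbered 3 were below the other 4 for 3 and above for 1. Angptl4, which inhibits lipoprotein lipase, and Igfbp1, an insulin-suppressed binding protein, had differences of -3.02 and -1.97. The fatty acid synthase gene Fasn, also named after its values were seen, had one of 1.21 (0.73 without HMGB2-KO liver 3). Temperature-responsive genes, 7 of 8 measured, gave 0 calls by genotype. Livers numbered 3 were above the other 4 for 1 and below for 0. The largest differences by number were 0.61 for Dnajb1 (0.34 without HMGB2-KO liver 3) and 0.43 for Hsp90aa1. The median absolute difference by number was 0.36 log2 for this list and for the glucocorticoid-induced genes, against 0.14 over all genes. It was 1.30 for the fasting and feeding genes. The part of food, hormones or temperature in the clock values was not tested.

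The genes most like the 3 widest members were found by the root mean square (RMS) difference of their centred profiles over the 6 livers. Nearest to Dbp were Lpin1, a phosphatidate phosphatase (RMS difference 0.61 log2), Nr1d1 (0.67) and the metallothionein gene Mt1 (0.75). Lpin1 was at 4.16, 5.39 and 1.33 in HMGB2-KO livers 1, 2 and 3, against 3.74, 5.16 and -0.68 in WT livers 1, 2 and 3. Like Dbp it was highest in liver 2 of each genotype, but its livers numbered 3 differed by genotype more. Nearest to Ciart was Mfsd2a, a lysophospholipid transporter (0.16), followed by Fkbp5, a co-chaperone of the glucocorticoid receptor (0.43), and Usp2 (0.46). Mfsd2a was at -0.08, 2.03 and -0.30 in HMGB2-KO livers 1, 2 and 3, against 0.11, 2.20 and -0.29 in WT livers 1, 2 and 3, so liver 2 stood alone as for Ciart. Nearest to Usp2 were Btbd35f23 (0.25), the interleukin-1 receptor gene Il1r1 (0.37) and Mfsd2a (0.46).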

How the data were processed

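Total liver RNA was labelled with biotin and hybridised to Clariom S mouse arrays, with amplification and labelling done in duplicate, per the labels' protocols. The deposited table gives 1 column per liver and 22206 rows, as values on a log scale from -8.60 to 6.93 taken here as log2. No source used here states the log base, row baseline, probe summary or normalization between arrays. Of the rows, 19572 had 1 gene symbol in the platform annotation and 2634 none, and all 19572 identifiers matched RefSeq's gene table. Where a gene had more than 1 row (55 genes), that of the highest mean was kept. Each array was centred on its median, with the values as deposited, quantile normalization and the mean of rows as alternatives. HMGB2-KO was tested against WT in limma 3.58.1 under R 4.3.3 (two-sided, genotype the only factor, Benjamini-Hochberg over 19505 genes, threshold 0.05). The code was run on simulated data with independent noise, without liver number effects or an array that stands apart. That run does not show how the test behaves with either. Livers numbered 3 were set against those numbered 1 and 2 without a test. The number of arrays limits the precision.

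The genes, lists and comparisons were chosen with earlier results of these data known. Named are the 10 clock genes, Hmgb2, the 3 nearest profiles to each of the 3 widest members (no predicted genes), 5 core clock genes and the 2 genes per list with the largest difference by liver number. Ppara, Cyp2a4, Cyp2a5, Alas1, Lcn2 and Fasn were added outside this rule, after their values were seen. Nothing says that livers of a genotype came from separate litters or days, so p-values measure only the spread between these animals.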

Additional observations from a re-analysis of the deposited data

Results flagged for a closer look

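Alas1 moved in opposite directions by liver number in the genotypes. Liver 3 lay below livers 1 and 2 in HMGB2-KO, with a mean difference of -1.61 log2, and above both in WT, with 0.90. With 1 liver numbered 3 per genotype, this difference was not tested.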

How the results depend on the processing

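No gene passed the adjusted threshold in limma under any of the 14 alternatives run (0 each, with unadjusted p under 0.05 for 601 to 946 genes), and no clock gene had an adjusted p below 0.863. With the liver number as a replicate block, 0 genes passed and 858 had an unadjusted p under 0.05. The SE of the 10 clock genes was then 0.12 to 0.27, against 0.17 to 1.61 without the block. Deviations from the group means, over all genes, correlated at 0.04, 0.13 and 0.29 between HMGB2-KO and WT livers numbered 1, 2 and 3, and HMGB2-KO liver 1 correlated more with WT liver 2 (0.10) than with WT liver 1. The array of WT liver 2 stands apart, so these values do not settle whether the numbers are pairs. By animal number, same-numbered livers were 38 and 39, 40 and 41, and 31 and 32. HMGB2-KO livers 2 and 3 did correlate most with the WT liver of their own number. As liver 1 did not, and no label says that same-numbered livers share a source, the numbers were not taken as pairs. The SE without the block thus includes the spread between liver numbers. The block changed no call. With it 1 of the 10 clock genes had an unadjusted limma p under 0.05, against 0 without it. The genes were picked with their values known, so that p supports no claim.

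Signs of fold changes turned with single livers left out: Per1 ranged from -0.16 to 0.97, Per3 from -0.14 to 0.72, Cry1 from -0.18 to 0.52, Cry2 from -0.047 to 0.30, Ciart from -0.72 to 0.93, Dbp from -0.96 to 2.08 and Usp2 from -0.60 to 0.73. In each of these fits the number of the omitted liver stood in 1 genotype only, so the turns mix liver number with genotype. Ciart was also at -0.024 with the values as deposited. For livers numbered 3 against the rest, the 10 genes kept their direction in all 90 repeats, and the median lay between -0.79 without WT liver 1 and -0.29 without HMGB2-KO liver 2. Repeats with the mean of rows could not differ, as each of the 10 genes had 1 row. All repeats re-used livers whose values were known when the genes were picked. The number of genes with HMGB2-KO above WT at all 3 liver numbers was 2 with the values as deposited, where WT liver 2 keeps its higher median. The 16 differences by liver number 3 and the 4 between livers numbered 2 and 1 that moved by more than the spread between livers kept their sign.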
